A study of Mus musculus with 9 samples.

Results

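The SERCA pumps, the ryanodine receptors and sarcolipin move calcium across the membrane of the sarcoplasmic or endoplasmic reticulum. The 7 genes Atp2a1, Atp2a2, Atp2a3, Ryr1, Ryr2, Ryr3 and Sln were taken by symbol, and all 7 were found among the 55416 gene identifiers of the count table. The mice were Cas9-expressing C57BL/6J animals of 8 to 10 weeks. Each received AAV8, an adeno-associated virus vector, injected into the interscapular brown fat. The vector carried the UCP1 sgRNA in 4 samples and the Control sgRNA in 5 samples, and all animals were then kept at 22 °C for 14 days. Which promoter drives Cas9, and which cells took up the vector, the labels do not state.

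The study set the Ucp1 guide against the control guide. The 9 count columns are named by a number and the abbreviation BAT, and 0 of them could be given to a guide from the labels. No column was placed with a guide by its order or its values, so no comparison between guides is reported. The 9 libraries were described as 1 group of brown fat samples, called libraries A to I in the order of the table's columns. Their totals ran between 15460829 and 17909534 counts, and no pair of columns was identical (0 pairs). The summed level of a 10-gene brown adipocyte list ran between 10351 and 13448 CPM (counts divided by the column sum and multiplied by 1000000). Fabp4, the most abundant of the list by mean, was at 3364 CPM or more in every library. Cidea ran between 1265 and 1749 CPM and Plin1 between 959 and 1371 CPM, whereas Ucp1 ran between 396 and 4620 CPM. The sum thus does not show that every gene of the list was high in every library.

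SERCA pumps use ATP to load calcium into the reticulum, and ryanodine receptors are the channels that let it out again. In skeletal muscle this cycle drives contraction, and sarcolipin, a small membrane peptide, lets SERCA spend ATP with less calcium moved, which releases heat. In beige fat of mice, a calcium cycle of SERCA2b and RyR2 has been linked to heat production that does not need Ucp1. Atp2a1 encodes the pump of fast muscle fibres, Atp2a2 the pump of heart and slow fibres and, as SERCA2b, of most other cells, and Atp2a3 a pump of blood cells, endothelium and some epithelia. Ryr1 is the channel of skeletal muscle, Ryr2 that of the heart, and Ryr3 is found at low levels in many tissues. Gene counts do not separate the splice forms of Atp2a2. The strand setting of the counting is unknown, so Rabep2, which overlaps Atp2a1 on the opposite strand and had at most 209 counts, and Aven, which overlaps Ryr3 and had at most 256 counts, may share reads with them.

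Atp2a1 and Ryr1 varied about as widely as the muscle genes Acta1 and Ckm and moved with them, whereas no such relation was called for Atp2a2, Atp2a3 or Ryr2. Acta1 encodes the actin of the skeletal muscle filament and Ckm the muscle creatine kinase. Atp2a1 had 56.0 CPM in the lowest library, a median of 339 CPM and 1171 CPM in the highest, a ratio of 20.9 between highest and lowest. Acta1 had 49.0, 242 and 1032 CPM at the same 3 points, a ratio of 21.1, and Ckm had 23.6, 95.7 and 418 CPM, a ratio of 17.7. Library B was the lowest and library E the highest for all 3 genes. The next highest Atp2a1 levels were 760.2 CPM in library C, 542 CPM in library G and 484 CPM in library A, and these libraries held the next highest Acta1 levels, 543, 472 and 361 CPM, in the same order. Ryr1 had 5.45 CPM in library B, a median of 37.8 CPM and 116 CPM in library E, a ratio of 21.3. The same 2 libraries were thus the extremes for the fast-fibre pump, the skeletal release channel and the muscle actin.

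Atp2a2 stayed within a narrower range, with 244 CPM in the lowest library, a median of 361 CPM and 497 CPM in the highest, a ratio of 2.04. Its lowest library was again library B, but its highest was library I, and library E, the library richest in muscle genes, held the next to lowest level at 287 CPM. Atp2a3 ran between 16.5 and 25.7 CPM around a median of 18.0 CPM, a ratio of 1.55. Ryr2 had 2.09 CPM in library G, a median of 3.95 CPM and 7.22 CPM in library I, a ratio of 3.45. Its counts were small, 34 to 128 per library. The standard deviation over the libraries, divided by the mean level, was 74.6% for Atp2a1 and 68.7% for Ryr1, against 25.3% for Atp2a2, 19.4% for Atp2a3, 44.2% for Ryr2 and a median of 17.4% over all genes tested.

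**Figure D1:**
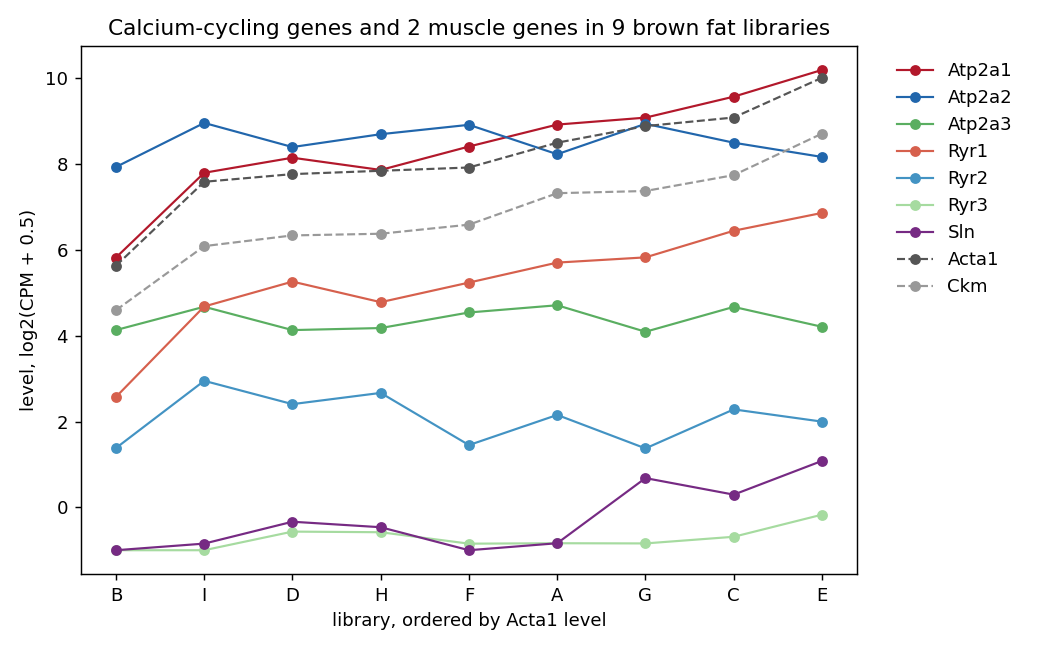
Level of each calcium-cycling gene (solid lines) and of Acta1 and Ckm (dashed lines) in each library, as log2(CPM + 0.5) on the vertical axis; libraries run along the horizontal axis by their Acta1 level, and lines only join the points of 1 gene. Atp2a1 and Ryr1 climb beside Acta1 across the libraries. Atp2a2 and Atp2a3, which varied by 2.04-fold and 1.55-fold, show no such climb, and Sln and Ryr3 lie near the bottom.

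Sarcolipin and the third ryanodine receptor were close to the limit of detection. Sln had 25 counts in library E, 19 in library G and 12 in library C, 5 or fewer in each of the other libraries, and 67 counts in all. It was at 0 in library B and library F. The exact 95% Poisson interval for counting error allows a level of up to 0.228 CPM in library B and 0.206 CPM in library F. Its highest level, in library E, was 1.62 CPM with an exact 95% Poisson interval of 1.05 to 2.39 CPM for counting error. The 3 libraries with the most Sln counts were also the 3 with the most Acta1. Ryr3 had 17 counts in all, between 0 and 6 per library, and was at 0 in library B and library I. The other small peptides that bind SERCA were low as well: Pln, phospholamban, reached at most 30 counts and Mrln, myoregulin, at most 11 counts in a library. Strit1 was not matched by symbol and has no value here.

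Levels of different genes were set side by side per kilobase of the longest coding sequence. On that scale the median level was 115 CPM per kilobase for Atp2a2 and 114 for Atp2a1, and the ranges overlapped, 77.8 to 159 for Atp2a2 and 18.8 to 392 for Atp2a1. Atp2a3 followed with a median of 5.77 CPM per kilobase and Ryr1 with 2.49, and these ranges overlapped too, since Ryr1 reached 7.62 in its highest library. Ryr2 had a median of 0.265 CPM per kilobase. Its highest value, 0.484, exceeded the lowest of Ryr1, 0.359, so the ranges of these channels met only at their ends. Ryr3 had a median of 0.00408 CPM per kilobase. The coding sequence of Sln is 96 bases of a transcript of 1318 bases, so its level was set per kilobase of transcript, where its median of 0.171 compared with 2.46 for Ryr1 and 80.5 for Atp2a2.

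The make-up of the SERCA reads varied from library to library, most in the share of Atp2a1 and Atp2a2. Atp2a1 gave 17.7% of the reads of the 3 pump genes in library B (exact binomial 95% interval 16.6% to 18.8%), a median of 44.5%, and 79.3% in library E (78.8% to 79.9%). Atp2a2 gave 76.9% in library B, a median of 52.9% and 19.4% in library E. Atp2a1 held more than 50% of the SERCA reads in 4 libraries and Atp2a2 in the other 5. Atp2a3 gave 1.22% to 5.37%, highest in library B. Per kilobase of coding length the median shares were 45.7% for Atp2a1 and 51.7% for Atp2a2. Per kilobase of transcript the order of these medians turned round, with 50.9% for Atp2a1 and 46.8% for Atp2a2.

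Ryr1 gave most of the ryanodine receptor reads in all 9 libraries. Its share was 72.1% in library B (exact binomial 95% interval 63.3% to 79.9%, from 122 reads), had a median of 92.8%, and was 96.8% in library E (95.8% to 97.5%, from 1850 reads). Ryr2 gave 27.9% in library B and 22.3% in library I, and 2.92% in library E. Ryr3 gave at most 0.511% of these reads.

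**Figure D2:**
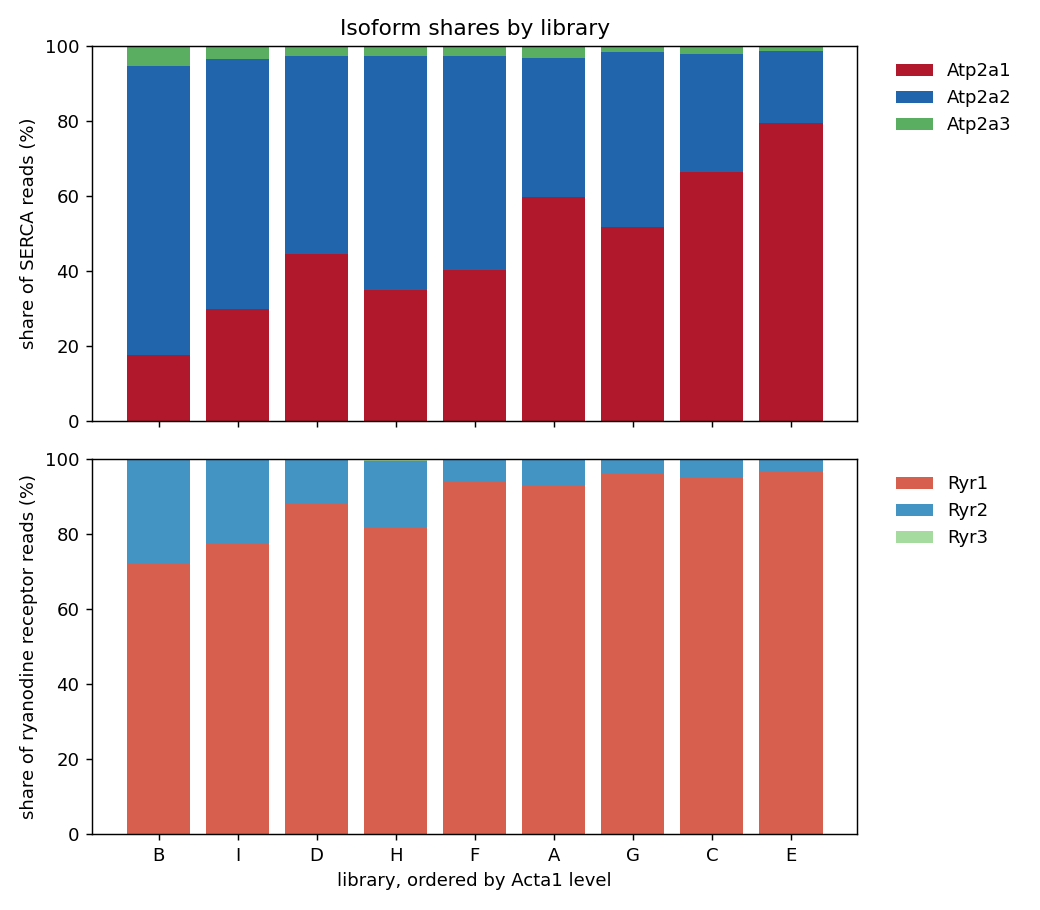
Share of the 3 SERCA genes in SERCA reads (upper panel) and of the 3 ryanodine receptor genes in ryanodine receptor reads (lower panel), in percent, for each library in order of its Acta1 level; each bar adds to 100%. The Atp2a1 share is 17.7% in the leftmost library and 79.3% in the rightmost, and Ryr1 makes up most of the lower bars throughout.

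The relation to the muscle genes was tested for every gene with a mean of 1 CPM or more. It is the Pearson r of log2(CPM + 0.5) over the 9 libraries, with a two-sided exact permutation test over all 362880 orders of the libraries and Benjamini-Hochberg adjustment over the 12259 genes tested. Acta1 and Ckm themselves had r = 0.99 (exact permutation p = 2.76e-06, the smallest the orders can give), so they are nearly the same axis and are not independent tests. Of the 7 genes, 5 passed the filter on low values. Atp2a1 and Ryr1, 2 of the 5, had an adjusted p under 0.05 with Acta1, both with a positive r, against a background of 0.791% of all genes tested. The same 2 of 5 were called with Ckm, where the background was 0.808%. None of the 5 was called with a negative r (0 of 5 by the exact permutation test, and 0 of 5 at an unadjusted p under 0.05), and 0.00816% of all genes were, with either muscle gene and by either measure of relation. These p-values treat the 9 libraries as exchangeable although they come from 2 guides, and the guide's part in the relation was not tested.

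Atp2a1 had r = 0.99 with Acta1 and rho = 0.98, with an adjusted exact permutation p of 0.0070 for r and 0.023 for rho. With Ckm it also had r = 0.99 and rho = 0.98, with adjusted exact permutation p-values of 0.0061 and 0.023. Only 13 of the genes tested had a higher r with Acta1 than Atp2a1, which ranked at 14. Ryr1 had r = 0.98 with Acta1 (adjusted exact permutation p = 0.0078) and r = 0.97 with Ckm (adjusted exact permutation p = 0.0075). By ranks Ryr1 had rho = 0.95 with each muscle gene, and its adjusted exact permutation p of 0.080 did not pass. By rho, Atp2a1 alone of the 5 was called, against a background of 0.204% with either muscle gene.

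The adjusted p of both calls missed the threshold when library B, C or E was left out, although r stayed high. Without library B, library C or library E, each left out alone, r of Atp2a1 and Ryr1 with the muscle genes was 0.96 to 0.99 and the adjusted exact permutation p was 0.053 to 0.068. Without any of the other 6 libraries the calls were kept, with adjusted exact permutation p between 0.013 and 0.043. Leaving out a single library leaves 40320 orders, which bounds the smallest p. That bound is the same whichever library is left out, so it does not set libraries B, C and E apart. The adjusted calls thus depended on each of these libraries, while r stayed at 0.96 or above without them. Library B and library E were the 2 libraries farthest from the Acta1 median. Without them, r over the remaining 7 was 0.97 for Atp2a1 and 0.94 for Ryr1 (unadjusted exact permutation p = 0.00079 and 0.0012). There 0 genes passed the adjusted exact permutation test, although 350 had a positive r with Acta1 at an unadjusted p under 0.05. The 7 libraries have only 5040 orders, which bounds the smallest p and makes a pass over 12259 genes hard to reach. This 0 thus does not show that the relation depends on libraries B and E.

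The level of Atp2a1 kept a nearly fixed ratio to Acta1. It was 1.01 to 1.40 times the Acta1 level in CPM over the 9 libraries, and the slope of log2 Atp2a1 on log2 Acta1 was 1.02. Ryr1 was 0.111 to 0.174 times the Acta1 level, with a slope of 0.996. For Atp2a2 the ratio to Acta1 spread over 17.9-fold and the slope was 0.055. Atp2a1 and Ryr1 also followed each other, with r = 0.99 over the 9 libraries and 7.49 to 10.3 Atp2a1 reads for each Ryr1 read.

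**Figure D3:**
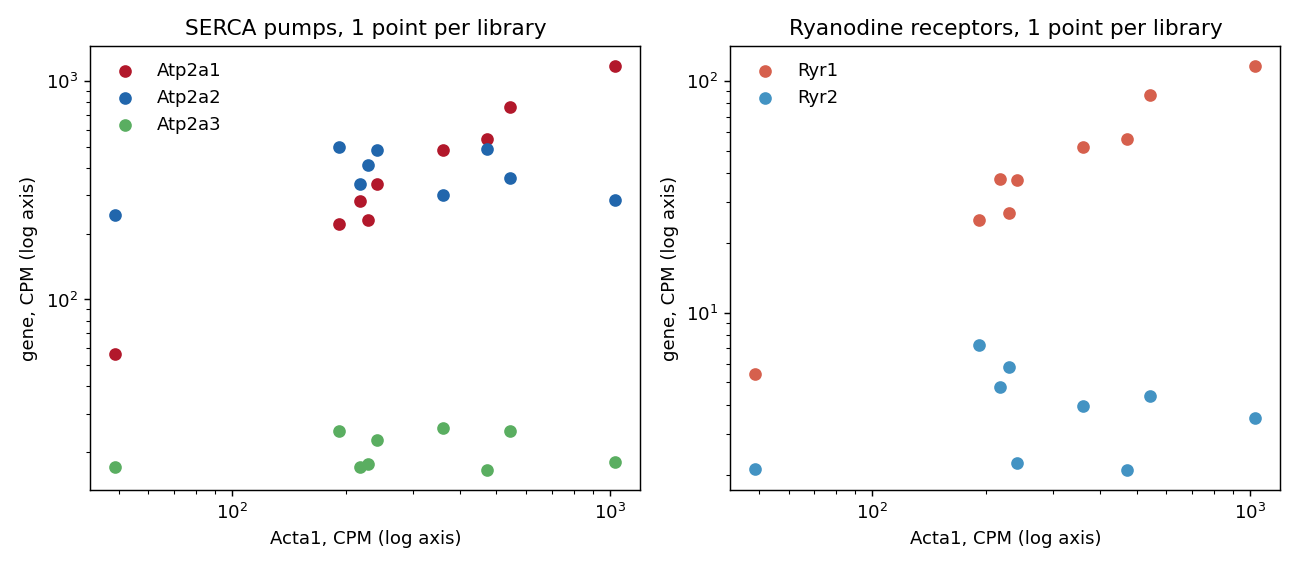
Level of the SERCA genes (left) and of Ryr1 and Ryr2 (right) against the level of Acta1, in CPM on log axes, with 1 point per library and gene. The points of Atp2a1 and Ryr1 lie along rising lines, whose slopes on the log2 scale are 1.02 and 0.996, and those of Atp2a2, Atp2a3 and Ryr2 show no such line.

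Atp2a2 had r = 0.18 with Acta1 and r = 0.08 with Ckm, Atp2a3 had 0.16 and 0.18, and Ryr2 had 0.12 and 0.06. Their adjusted exact permutation p-values were all above 0.99. A p that misses the threshold does not show that there is no relation, and with 9 libraries r of Atp2a2 with Acta1 moved between -0.53 and 0.51 as single libraries were left out. Sln and Ryr3 did not pass the filter. Without that filter, Sln had r = 0.79 with Acta1 (adjusted exact permutation p = 0.56 over 25094 genes) and Ryr3 r = 0.67 (adjusted exact permutation p = 1.0), on counts too sparse to read further.

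**Figure D4:**
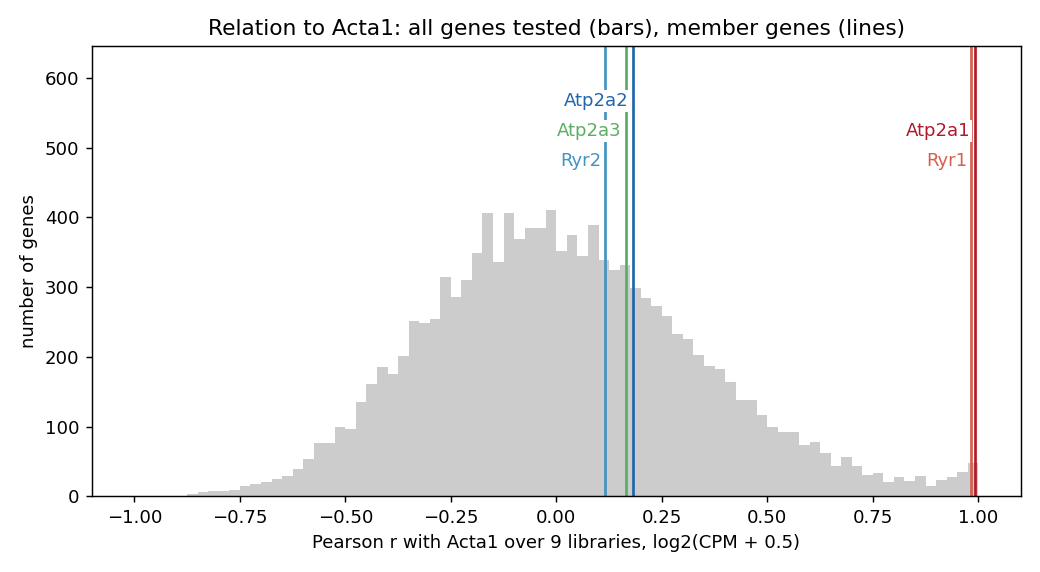
Number of genes (vertical axis) by their Pearson r with Acta1 over the 9 libraries (horizontal axis), for the 12259 genes tested, with a line at the r of each calcium-cycling gene past the filter. Atp2a1 and Ryr1 stand at 0.99 and 0.98 at the right end, and Atp2a2, Atp2a3 and Ryr2 lie at 0.18, 0.16 and 0.12 within the bulk.

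Skeletal muscle genes moved beside Atp2a1 and Ryr1. The summed level of the 20 fast-fibre genes was 303 CPM in the lowest library, 1163 CPM at the median and 4552 CPM in the highest, and none of its genes was at 0 in any library. Of the 19 fast-fibre genes tested with Acta1, 16 passed with a positive r and 0 with a negative one, and their median r was 0.98, against a median of -0.0011 over all genes tested. Myh4, the myosin of the fastest fibres, ran between 51.4 and 686 CPM, and Tnnt3, the fast troponin T, between 18.3 and 420.0 CPM. Without library B, C or E, each left out alone, 3 of the 19 fast-fibre genes passed the adjusted test and their median r was still 0.98, and by rho 9 passed. The 10 slow-fibre genes had a median r of 0.91 with Acta1, and 2 of them, Tnnt1 and Casq2, passed. The slow-fibre count ranged between 0 and 4 as single libraries were left out, was 0 in 7 of those 9 cases (without A, B, C, D, E, G or I), and was 0 by rho. Myh7, the slow myosin, ran between 4.39 and 164 CPM with r = 0.95 and an adjusted exact permutation p of 0.052. In bulk RNA, fewer cells of a type and less RNA per cell cannot be told apart, and the part that muscle tissue in the samples had in the levels of Atp2a1 and Ryr1 was not tested.

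The genes of the triad, where the muscle cell membrane meets the calcium store, held genes with a high and genes with a low r. Of the 14 tested with Acta1, 6 passed with a positive r and 0 with a negative one, and the median r was 0.94. Without library B, C or E, each left out alone, 2 of the 14 passed, with a median r of 0.88 to 0.93, and by rho 4 passed. Trdn, triadin, which anchors calsequestrin to the ryanodine receptor, had r = 0.99 (adjusted exact permutation p = 0.0042) and ran between 1.36 and 49.5 CPM. Cacna1s, the voltage sensor that opens RyR1, had r = 0.99 (adjusted exact permutation p = 0.0070). It ran between 2.41 and 42.9 CPM. Fkbp1a, which encodes a binding protein of the ryanodine receptor and is used by most cells, did not pass, with r = -0.27. Its level varied by 1.33-fold between the lowest and the highest library.

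None of the genes tested from the other calcium lists passed, 0 of 13 for release, entry and buffering at the endoplasmic reticulum and 0 of 11 for mitochondrial and plasma membrane transport. Itpr1 and Itpr2, the inositol trisphosphate receptors that are the other release channels of the reticulum, had r = 0.40 and r = 0.33 with Acta1. Calr, the calcium buffer calreticulin, had r = -0.31 and levels between 203 and 327 CPM. Letm1, a protein of the inner mitochondrial membrane, was the most abundant of the transport list with 433 to 787 CPM and r = -0.28. Slc8a3, a sodium-calcium exchanger found in skeletal muscle among other tissues, had r = 0.91 with Acta1 and 0.90 with Ckm, with adjusted exact permutation p-values of 0.17 and 0.15, on 49 counts at most. On linear CPM 1 of the 11 genes of its list passed with Acta1. The 10 brown adipocyte genes had a median r of -0.04 and 0 passed, 7 smooth muscle genes a median of 0.36 and 0 passed, and 6 endothelial genes a median of 0.22 and 0 passed. The smooth muscle and endothelial medians were not stable. They were 0.74 and 0.59 without library B, 0.06 and -0.05 without library E, and 0.72 and 0.49 on linear CPM, with 0 passed each time. Of 7 blood and immune genes and 4 nerve and Schwann cell genes tested, 0 passed. The 8 heart muscle genes did not reach the filter: Nppa, Nppb and Myl7 were at 0 in every library, and the highest of the list, Actc1, which is also an actin of developing skeletal muscle, had 55 counts at most.

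**Figure D5:**
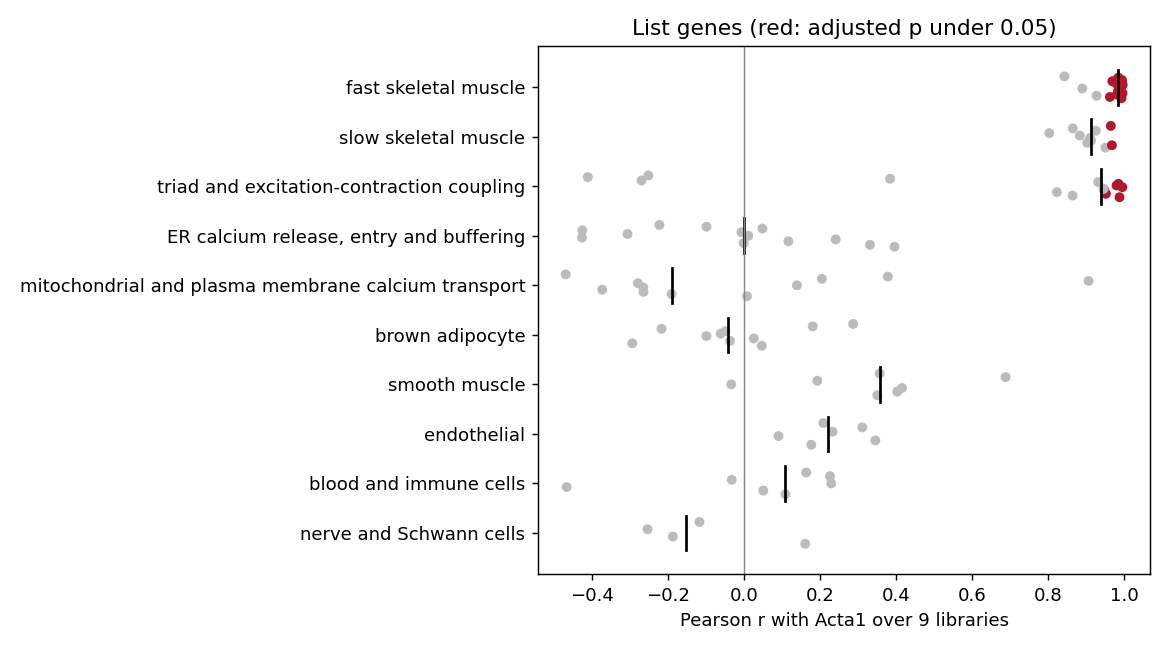
Pearson r with Acta1 over the 9 libraries (horizontal axis) for each tested gene of each list, with a black bar at the list's median; red points have an adjusted p under 0.05. Red points occur in the fast-fibre, slow-fibre and triad lists, whose medians are 0.98, 0.91 and 0.94, and the medians of the other lists lie between -0.19 and 0.36.

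The 5 genes most like each member over the 9 libraries, by Pearson r among genes with a mean of 1 CPM or more, differed in kind. For Atp2a1 they were Cacna1s, Mylk2, Actn3, Usp13 and Pygm, each with r = 0.99 or above. Mylk2 encodes the skeletal muscle myosin light chain kinase, Actn3 the fast-fibre alpha-actinin and Pygm the muscle glycogen phosphorylase. For Ryr1 they were Neb, Myom2, Cacna1s, Usp13 and Ttn, again with r of 0.99 or above, and Neb, Myom2 and Ttn encode the large filament proteins nebulin, myomesin 2 and titin. For Atp2a2 the list held Dhx33, Atp13a3, Rptor, Rab14 and Clic4, each with r = 0.98, and no gene of the muscle lists. Rptor encodes the raptor subunit of mTORC1 and Atp13a3 is a P-type ATPase, the family that SERCA pumps belong to. For Atp2a3 they were Aktip, Tmem147os, Stk35, Gpam and Tmem136, with r between 0.90 and 0.94, and Gpam, a mitochondrial acyltransferase of triglyceride synthesis, was the most abundant at 612 to 749 CPM. For Ryr2 they were Cpn2, Mphosph9, Zfp874a, Zfp667 and St6gal1, with r between 0.91 and 0.93. Sln, on its few counts, was most like Asb5, Tnni1, Pkia, Fxyd6 and Asb2, with r between 0.91 and 0.93, and Tnni1 is the troponin I of slow fibres. Ryr3, with 17 counts in all, was most like Hmcn2, Filip1l, Gja5, Inpp4b and Mef2c, with r between 0.87 and 0.93. These are descriptions over 9 libraries that share their scaling, with no test.

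Within each family, r between the abundant members was low. Atp2a1 and Atp2a2 had r = 0.18 over the 9 libraries and Ryr1 and Ryr2 had r = 0.15. Atp2a1 reads stood at 0.230 for each Atp2a2 read in the library lowest in that ratio, 0.842 at the median and 4.08 in the highest.

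The promoters of the genes that moved together are shown for reference. RefSeq promoters of GRCm38.p6, an older build than the GRCm39 named for the counts, were found for 4 of the 7 genes. The 250 bases before the start of Atp2a1 lie at chr7:126463074-126463323 and those of Ryr1 at chr7:29125152-29125401, both on the minus strand. Capitals mark the E-box letters CANNTG, bound by muscle regulatory factors among others and read the same on both strands.
Atp2a1: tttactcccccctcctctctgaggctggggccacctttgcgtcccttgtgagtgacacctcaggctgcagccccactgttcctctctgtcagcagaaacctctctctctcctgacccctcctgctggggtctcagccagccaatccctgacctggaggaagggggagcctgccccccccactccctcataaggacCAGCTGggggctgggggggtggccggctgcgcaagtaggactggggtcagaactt
Ryr1: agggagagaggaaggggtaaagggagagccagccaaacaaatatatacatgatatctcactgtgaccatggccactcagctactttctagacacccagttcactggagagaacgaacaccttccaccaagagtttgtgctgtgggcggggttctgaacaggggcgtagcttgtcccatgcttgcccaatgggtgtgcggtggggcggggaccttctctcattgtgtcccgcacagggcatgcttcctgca
The Atp2a1 window held 1 match, beginning 55 bases before the start, and the Ryr1 window 0. Ryr2 held 2 matches and Atp2a3 held 0. Of 32851 promoter windows of this length, 66.2% held at least 1 match, so a match is common. No MEF2 consensus was found in the 4 windows (0 matches, both strands), and 0.508% of all windows held it. These are matches of letters and not evidence of a bound site.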

How the data were processed

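RNA of interscapular brown fat was sequenced in 9 samples. The deposited table holds raw gene counts of the authors, 1 column per library, with 55416 Ensembl identifiers. The submitters' processing notes name FastQC, STAR, DESeq2 and the build GRCm39. Versions, annotation release and strand setting are unstated there, so reads of genes that overlap a member on the opposite strand, such as Rabep2 beside Atp2a1 and Aven beside Ryr3, may not be told apart.

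Symbols came from a GENCODE table, which named 52083 identifiers. Coding and transcript lengths came from GENCODE M21 on GRCm38, the longest per gene, and were used as lengths only. Counts were divided by the column sum (CPM). Genes with a mean of 1 CPM or more, 12260 in all, entered the relation to Acta1 and to Ckm, each leaving out the muscle gene itself, on log2(CPM + 0.5), since a pseudocount understates the change of low genes. Exact permutation p-values over all orders of the libraries were Benjamini-Hochberg adjusted over all genes tested. The libraries were not split into clusters, since the widest gap in Acta1 (44.7% of its log2 range) and in Ckm (36.3%) left 1 library on its own. TMM factors (edgeR 4.0.16) and size factors (DESeq2 1.42.0) served as alternatives only. All 9 columns were used as 1 group, with 0 other columns left out and 0 columns given to a guide, so the planned edgeR test between guides was not run. Nothing in the labels says more than that the samples are separate, so p-values refer to these libraries only. Each p-value is the share of orders of the libraries that gave a correlation at least as large in size. At these depths 3 counts correspond to 0.168 to 0.194 CPM, and intervals cover counting error only.

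The procedure was tested on simulated data. Genes named are the 7 members, Acta1, Ckm, the 5 genes most like each member and the 4 most abundant of each list. A gene of these lists is not reported here. Other list genes, such as Trdn, Cacna1s, Itpr2, Slc8a3, Casq2, Nppa, Nppb and Myl7, were named after their values were seen. The members and lists were chosen with earlier results of these data known.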

Additional observations from a re-analysis of the deposited data

Results flagged for a closer look

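In 3 of the genes described, the highest of the 9 libraries stood apart from the rest, by a gap to its neighbour that was large against the whole range (Dixon's criterion at the 95% level, which flags about 1 in 20 groups by chance). All 3 had their highest value in library E. Acta1 had 1032 CPM there, and the next library had 543 CPM. Ckm had 418 CPM, and the next library had 214 CPM. Ryr3 had 0.388 CPM, from 6 counts, and the next library had 0.175 CPM, from 3 counts. Atp2a1 and Ryr1 were also highest in library E but did not meet the criterion. The criterion was applied to the levels of the 7 members, Acta1 and Ckm and to the isoform shares, on CPM without a logarithm. On the log2 scale the widest gap of Acta1 and of Ckm lay above the lowest library instead. Acta1 and Ckm are nearly the same axis, so their flags are not independent.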

How the results depend on the processing

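Atp2a1 and Ryr1 with Acta1 and Ckm made 4 relations past the adjusted threshold. The same 4 passed with TMM or DESeq2 scaling, with column sums that leave out mitochondrially encoded genes and the 20 most abundant genes, with pseudocounts of 0.1 and 1 CPM, on linear CPM and without the filter on low values. With Spearman's rho 2 passed, both of Atp2a1, and 25 genes followed Acta1 and 25 followed Ckm, against 97 and 99 with Pearson's r. Without the 2 libraries farthest from the muscle gene's median, 0 relations passed and 0 genes followed Acta1 or Ckm after adjustment, while 4 relations and 350 genes with Acta1 had an unadjusted exact permutation p under 0.05; 7 libraries have 5040 orders, which bounds the smallest p. Leaving out 1 library at a time, which was chosen after seeing the data, gave 0 to 4 relations, 7 to 85 genes with Acta1 and 7 to 82 with Ckm. It was 0 relations without library B, library C or library E, where all 4 still had an unadjusted exact permutation p under 0.05. The 8 libraries left have 40320 orders, which bounds the smallest p there too. This bound is the same where the relations were kept, so it does not set libraries B, C and E apart.

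Dividing by the smaller column sum raised median levels beyond the spread of the libraries for Atp2a2 (614 CPM), Atp2a3 (31.5 CPM) and Ryr2 (6.79 CPM), as a smaller divisor does for every gene. The other 147 of 150 alternative values of levels and shares moved by less than 1 SD of the libraries. For genes that vary widely this is a loose measure. With the smaller column sum the median of Atp2a1 rose from 339 to 549 CPM and that of Ryr1 from 37.8 to 69.0 CPM, within their SD. Most of the alternatives left out a single library, which moves a median little. No paired analysis was possible because replicate numbers and guides are absent from the column names. Depth limits Sln and Ryr3 most, with medians of 4 counts and 1 count per library.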

Other observations

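The levels of Ucp1, which encodes the uncoupling protein and is the target of the guide, fell into separate clusters, with the widest gap at 60.9% of the log2 range and 4 libraries below it. The widest gap in Atp2a2 was 22.8% of its log2 range. In CPM, library A had 299.7 of Atp2a2 and 3848 of Ucp1, library B had 244 and 4619.9, and library C had 361 and 3937 of the same genes in that order. Library D had 337 CPM of Atp2a2 and 2704 CPM of Ucp1, and library E had 287 and 3652 CPM. Library F had 482 CPM of Atp2a2 and 396 CPM of Ucp1, and library G had 490.2 and 606 CPM. Library H had 414 CPM of Atp2a2 and 445 CPM of Ucp1, and library I had 497 and 459 CPM. Libraries F, G, H and I held the 4 lowest Ucp1 levels and the 4 highest Atp2a2 levels. The share of all genes that separate the same libraries was not counted, so the split cannot be called particular to Atp2a2. The libraries also differed in make-up: the 20 most abundant genes took 34.9% to 38.3% of the counts in libraries F to I and 41.0% to 45.4% in libraries A to E. No guide was inferred from these values and no test was made on them.
A single gene, Cyp2j6, an epoxygenase of the cytochrome P450 family, passed the adjusted threshold with a negative relation to Acta1, and it was named after its values were seen. It had r = -0.93 and rho = -1.0 over the 9 libraries, with an adjusted exact permutation p of 0.0042 for r. It did not pass with TMM (r = -0.74) or DESeq2 scaling (r = -0.73), with column sums that leave out mitochondrially encoded genes and the 20 most abundant genes (r = -0.60), on linear CPM (r = -0.76), without library B (r = -0.84) or library C (r = -0.92), or without libraries B and E together (r = -0.83).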
